A study of Capra hircus with 3 samples.

Results

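The genes described here are the myogenic transcription factors and satellite cell genes of goat (Capra hircus) skeletal muscle. They were taken from the deposited table by product text, as the entries naming myogenin, myogenic factor 5 or 6, paired box 7, myocyte enhancer factor 2A, 2C or 2D, the homeobox factor SIX4, or cadherin 15. These were 9 of the 24689 entries of the table (MYOG, MYF5, MYF6, PAX7, MEF2A, MEF2C, MEF2D, SIX4 and CDH15). MYOD1 was not analysed here. An entry described as similar to Pax-7, at 0, 0.306 and 0.165 FPKM in kid, youth and adult, carries the name of another gene in the reference table and was not counted as PAX7. All 9 genes had a mean of at least 1 FPKM, the level required of the 12121 genes compared between libraries.

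RNA was sequenced from the longissimus dorsi, a back muscle that runs beside the backbone, at 3 postnatal stages with 1 library each: kid (2 months), youth (9 months) and adult (24 months). The labels used here give no sex, breed or treatment and do not say how many animals stand behind a library. Values are FPKM (fragments scaled for gene length and sequencing depth), from library totals of 15829474, 14920689 and 18399385 reads worked out from the steps between values. With 1 library per stage there was no test and no replicate check, so every difference below describes these libraries; the intervals are exact 95% intervals of the reads and cover counting error only. All 7 myofibre markers were present in each library (CKM at 14183, 19069 and 18998 FPKM). The extraction label names mammary tissue, whereas CSN2, CSN3, LALBA, CSN1S1 and KRT14, genes of milk and of mammary epithelium, were listed at 0 in all 3 libraries; the last of the 6 mammary markers, KRT18, was at 3.11, 1.44 and 1.17 FPKM.

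Muscle fibres form from precursor cells under a small family of basic helix-loop-helix proteins, the myogenic regulatory factors. MYF5 acts early to commit cells to muscle, MYOG drives their terminal differentiation and fusion, and MYF6 (also called MRF4) is the family member that predominates in mature fibres of adult rodents. MEF2 proteins bind the same muscle promoters as partners of the family, the homeodomain protein SIX4 acts upstream of it, and PAX7 marks satellite cells, the resident stem cells that lie against the fibre and carry the adhesion molecule M-cadherin (CDH15). In whole muscle most RNA comes from fibres, so genes of satellite cells are measured at low levels. In such bulk samples fewer cells of a type and less RNA per cell cannot be told apart.

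The 9 genes spanned a wide range of levels, and their order was almost the same in the 3 libraries. From the highest FPKM to the lowest, kid and youth both had MYF6, MEF2C, MEF2D, MEF2A, MYOG, SIX4, CDH15, MYF5 and PAX7. In adult the order differed in 1 place, with MYOG above MEF2A. The ratio of FPKM held 1 for SIX4 over CDH15 in kid (1.25, 0.993 to 1.57) and youth (1.08, 0.835 to 1.37), and for PAX7 over MYF5 in kid (0.732, 0.449 to 1.18) and adult (0.932, 0.627 to 1.38), and left out 1 between all other neighbours in these orders. MYF6 stood above 97.7%, 96.8% and 94.5% of the genes compared in kid, youth and adult, and PAX7 above 4.66%, 1.58% and 14.6% of them. These comparisons between genes rest on the gene lengths behind the FPKM values, which were worked out as 1335 bases for MYF6, 561 for MYOG and 602 for SIX4, among others.

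**Figure D1:**
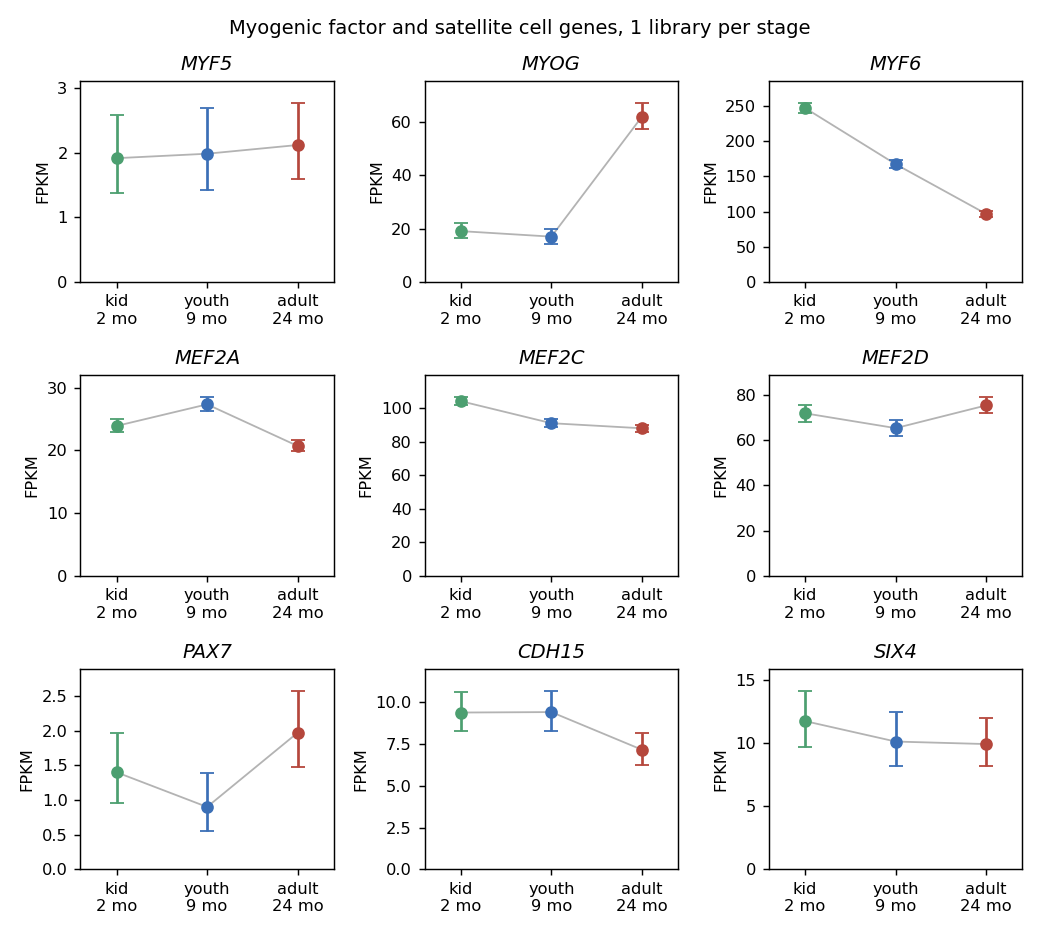
FPKM of each of the 9 genes (y axes start at 0) in the kid, youth and adult libraries, with exact 95% intervals of the reads as bars and 1 library per stage. MYOG is high in the adult library alone, at 62.0 FPKM, and MYF6 is lower at each later stage, from 247 to 96.6 FPKM.

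Among the myogenic regulatory factors described here, MYOG and MYF6 differed most between libraries and in opposite directions. MYOG (gene 100861395) was at 19.03 FPKM in the kid library from 169 reads, 16.96 in youth from 142 reads and 62.0 in adult from 640 reads. The kid and youth values lay within counting error of each other (ratio of youth to kid 0.891, 0.708 to 1.12), and the adult value lay far above both. Adult was 3.65-fold above youth (3.04 to 4.42) and 3.26-fold above kid (2.75 to 3.88). Of the 12121 genes compared, 13 had a larger positive difference than MYOG in adult against youth and 11 in adult against kid. An adult level at least 2-fold above both other libraries on the log2(FPKM + 1) scale was found for 39 genes, or 0.322%, MYOG among them.

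MYF6 (gene 100861258) was at 247 FPKM in the kid library from 5225 reads, 167 in youth from 3335 reads and 96.6 in adult from 2373 reads. Each library was thus below the one before it. Youth was 1.48-fold below kid (1.41 to 1.54), adult 1.73-fold below youth (1.64 to 1.83) and adult 2.56-fold below kid (2.44 to 2.69). In adult against kid, 54 genes had a more negative difference. Intervals below 1 at both steps were seen for 579 genes (4.78%), and 67 of these were also at least 2-fold lower in adult than in kid. Schwann cell markers were also lower beyond counting error, in 4 of 4 genes for youth against kid, in 3 of 4 for adult against youth and in 4 of 4 for adult against kid. The shares of all genes were 26.9%, 27% and 34.6% in the same order. S100B was higher in adult than in youth (1.44, 1.20 to 1.72). The Schwann cell markers summed to 206, 120 and 78.6 FPKM in kid, youth and adult, with none at 0. Myofibre markers summed to 47741, 57672 and 63352 FPKM. By counting intervals 5 of 7 were higher and 1 of 7 lower in adult than in kid, against 16.7% and 34.6% of all genes. The part of either cell type in the MYF6 values was not tested.

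MYF5 (gene 100861252), the immediate neighbour of MYF6 in the goat assembly ARS1.2, was at 1.91 FPKM in the kid library from 42 reads, 1.98 in youth from 41 reads and 2.12 in adult from 54 reads. The 3 values overlapped within counting error, with a ratio of adult to kid of 1.11 (0.725 to 1.70). Within a library, MYF6 was 129-fold above MYF5 in kid (95.4 to 179), 84.5-fold in youth (62.1 to 118) and 45.6-fold in adult (34.9 to 60.9).

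The balance between MYF6 and MYOG therefore differed between stages. FPKM of MYF6 was 12.99 times that of MYOG in kid (11.2 to 15.2), 9.87 times in youth (8.34 to 11.8) and 1.56 times in adult (1.43 to 1.70). The summed level of the 3 factors was 268 FPKM in the kid library, 186 in youth and 161 in adult. MYOG made up 7.10% of this sum in kid, 9.10% in youth and 38.6% in adult, and MYF6 made up 92.2%, 89.8% and 60.1%. The adult library thus had the lowest sum and the highest share of MYOG.

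**Figure D2:**
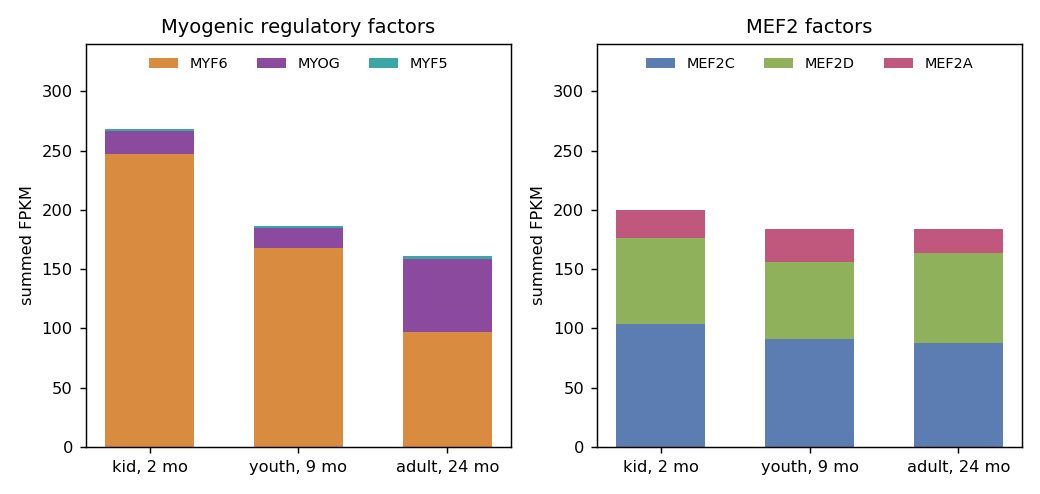
Summed FPKM (y axis from 0) of MYF6, MYOG and MYF5 (left) and of MEF2C, MEF2D and MEF2A (right) in the kid, youth and adult libraries. The sum of MYF6, MYOG and MYF5, without MYOD1, was 268, 186 and 161 FPKM, with MYOG at 38.6% of it in adult, while the sum of the MEF2 genes shown was 200.0, 184 and 184 FPKM.

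MEF2 factors are MADS-box proteins that bind A/T-rich sites in muscle promoters, and the 3 genes differed little between libraries. MEF2C (gene 102175290), the most abundant of them, was at 104 FPKM in the kid library, 90.9 in youth and 87.9 in adult. It was 1.14-fold lower in youth than in kid (1.11 to 1.18) and 1.18-fold lower in adult than in kid (1.15 to 1.22), while the adult to youth ratio of 0.967 (0.934 to 1.001) held 1. After rescaling to a common sum without the 10 most abundant genes this last interval was below 1 (0.904 to 0.969).

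MEF2D (gene 102174260) was at 72.0 FPKM in the kid library, 65.4 in youth and 75.5 in adult, lowest in youth. Its adult to youth ratio was 1.15 (1.07 to 1.24). The adult to kid ratio of 1.05 (0.977 to 1.13) held 1, but was above 1 after rescaling by the median ratio (1.15, 1.08 to 1.24). The youth to kid ratio of 0.909 (0.841 to 0.982) lost its place below 1 after rescaling by the median ratio (0.903 to 1.05) and after rescaling without the 10 most abundant genes (0.873 to 1.02). MEF2A (gene 102180703) had the opposite order, at 23.9 FPKM in the kid library, 27.4 in youth and 20.7 in adult. It was 1.14-fold higher in youth than in kid (1.08 to 1.22) and lower in adult than in youth by 1.32-fold (1.25 to 1.40). Its adult to kid ratio of 0.866 (0.815 to 0.920) held 1 after rescaling by the median ratio (0.897 to 1.01). MEF2D over MEF2A was accordingly 3.01 in kid (2.81 to 3.22), 2.39 in youth (2.23 to 2.56) and 3.65 in adult (3.42 to 3.89). The sum of the 3 genes stayed between 184 and 200.0 FPKM.

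PAX7 (gene 102172220) was at 1.40 FPKM in the kid library from 33 reads, 0.901 in youth from 20 reads and 1.97 in adult from 54 reads. The youth value was the lowest, and only the adult and youth values were apart beyond counting error, at a ratio of 2.19 (1.29 to 3.86). The ratio of youth to kid was 0.643 (0.350 to 1.15) and that of adult to kid 1.41 (0.897 to 2.24). On the log2(FPKM + 1) scale, which shrinks differences of low genes, adult minus youth was 0.64. Smooth muscle and pericyte markers had a like order in their sum, at 268, 209 and 289 FPKM in kid, youth and adult, with none at 0. ACTA2 was the largest part of it, at 137, 95.8 and 147 FPKM. Beyond counting error 3 of 4 were higher in adult than in youth, against 22.3% of all genes, and PDGFRB was lower (0.835, 0.765 to 0.911). In youth against kid 2 of 4 were lower, against 26.9% of all genes, and 2 held 1. The part of these markers in the PAX7 values was not tested.

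CDH15 (gene 102191361) was at 9.40 FPKM in the kid library from 256 reads, 9.42 in youth from 242 reads and 7.17 in adult from 227 reads. Adult was lower than youth by 1.31-fold (1.09 to 1.58) and than kid by 1.31-fold (1.09 to 1.57), and kid and youth were alike (ratio 1.003, 0.838 to 1.20). The adult to kid difference was not beyond counting error after rescaling by the median ratio (0.699 to 1.01). PAX7 and CDH15 thus differed in opposite directions between adult and youth: CDH15 was 6.71 times PAX7 in kid (4.66 to 9.95), 10.5 times in youth (6.63 to 17.4) and 3.63 times in adult (2.69 to 4.99). SIX4 (gene 102173941), a homeodomain protein, was at 11.8 FPKM in the kid library, 10.1 in youth and 9.93 in adult, from 112, 91 and 110 reads, and all 3 ratios between libraries held 1.

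**Figure D3:**
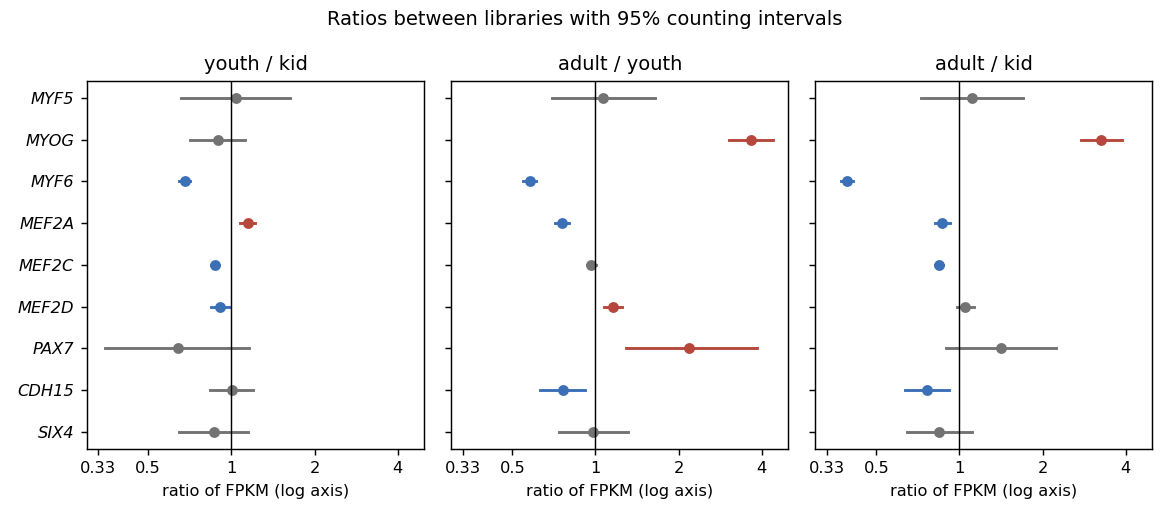
Ratio of FPKM between libraries (log axis) for the 9 genes with exact 95% intervals of the reads, in red where the interval lies above 1, in blue where it lies below 1 and in grey where it holds 1. MYOG lies at 3.65 for adult over youth and 3.26 for adult over kid, and MYF6 at 0.391 for adult over kid.

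Youth was compared with kid to see how these genes differ between 2 and 9 months. None of the 9 genes was at least 2-fold higher or lower on the log2(FPKM + 1) scale, against 0.421% and 0.627% of all genes compared. By counting intervals 1 of 9 was higher (MEF2A) and 3 of 9 lower (MYF6, MEF2C and MEF2D), against 11.6% and 26.9% of all genes. The median difference of the 9 was -0.16 and that of all genes -0.08.

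Adult was compared with youth for the step from 9 to 24 months. MYOG was at least 2-fold higher and no gene of the 9 was 2-fold lower, against 1.01% and 1.07% of all genes. By counting intervals 3 of 9 were higher (MYOG, PAX7 and MEF2D) and 3 of 9 lower (MYF6, MEF2A and CDH15), against 22.3% and 27% of all genes. The median difference of the 9 was -0.03 beside -0.02 for all genes. Youth enters both of these comparisons, so a value particular to that library appears in both with opposite sign.

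Adult against kid spans both steps. MYOG was at least 2-fold higher and MYF6 at least 2-fold lower, against 0.536% and 1.22% of all genes. By counting intervals 1 of 9 was higher (MYOG) and 4 of 9 were lower (MYF6, MEF2A, MEF2C and CDH15), against 16.7% and 34.6% of all genes. The counts by interval were thus near the background shares in all 3 comparisons. After rescaling by the median ratio 2 of 9 were higher by interval (MYOG and MEF2D) and 2 of 9 lower (MYF6 and MEF2C). No share of all genes by interval was worked out under that rescaling, so these counts have no background beside them. The median over all genes was -0.10 here and moved by 0.12 after rescaling by the median ratio. Relative to that median, adult minus kid was 1.75 for MYOG, -1.25 for MYF6, -0.25 for CDH15, -0.15 for MEF2C and -0.10 for MEF2A on the log2(FPKM + 1) scale.

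**Figure D4:**
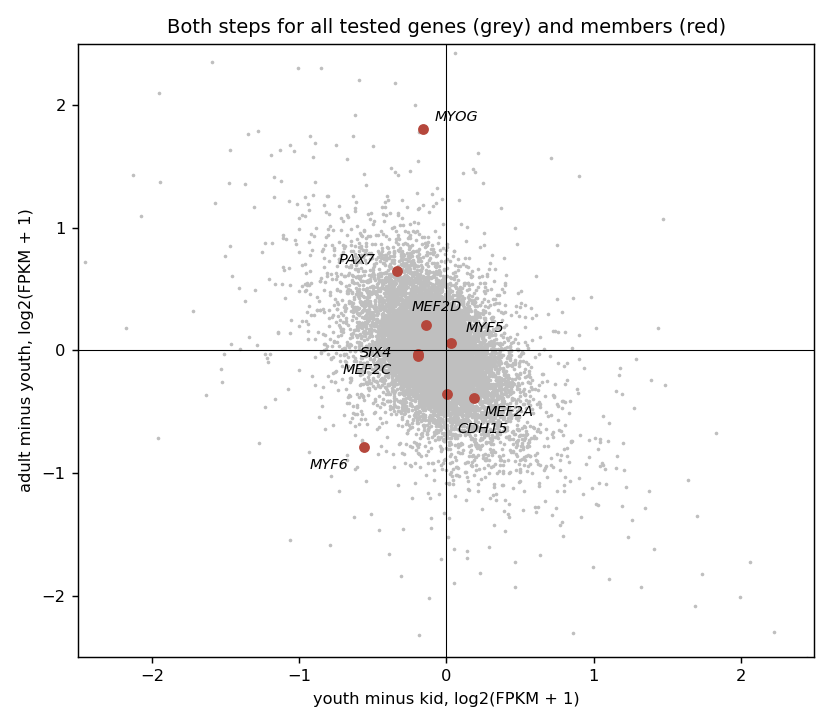
Adult minus youth (y axis) against youth minus kid (x axis), both as differences of log2(FPKM + 1), for the 12121 genes compared (grey) and the 9 genes described (red); both axes share the youth library, and 12 genes lie beyond the limits of 2.5. MYOG lies at -0.16 on the x axis and 1.81 on the y axis, and MYF6 at -0.56 and -0.79.

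Partners and inhibitors of the myogenic regulatory factors included the ID genes, which were lowest in adult. Of 20 listed genes, 15 were compared, and by counting intervals 2 were higher and 7 lower in youth than in kid, 2 higher and 9 lower in adult than in youth, and 1 higher and 11 lower in adult than in kid. Of all genes compared, 11.6% were higher and 26.9% lower in youth than in kid, 22.3% and 27% in adult than in youth, and 16.7% and 34.6% in adult than in kid. The list's median for adult against kid was -0.40 beside -0.10 for all genes, and it was -0.28 after rescaling by the median ratio, -0.23 after quantile normalization and -0.25 at a pseudocount of 5. Of the list, 2 genes were at least 2-fold apart between adult and kid, and 1 under each of these alternatives. The ID proteins bind the E-proteins that the myogenic factors need and so restrain them. ID1 was at 85.0 FPKM in the kid library, 66.2 in youth and 33.7 in adult, 2.52-fold lower in adult than in kid (2.25 to 2.84). ID3 was at 40.4, 35.8 and 19.3 FPKM, 2.10-fold lower (1.81 to 2.43), and ID2 at 19.2, 18.2 and 10.97 FPKM, 1.75-fold lower (1.39 to 2.21). All 3 were lowest in adult, the library where MYOG was highest, and a link between the ID genes and MYOG was not tested. The E-proteins themselves were at 6.89, 4.68 and 4.997 FPKM for TCF3, 13.1, 11.4 and 9.64 FPKM for TCF4, and 17.8, 16.2 and 16.0 FPKM for TCF12. They too were lower in adult than in kid beyond counting error. The ratios were 0.725 for TCF3 (0.630 to 0.835), 0.736 for TCF4 (0.680 to 0.797) and 0.898 for TCF12 (0.830 to 0.972). For TCF12 the difference on the log2(FPKM + 1) scale was -0.15, near the median of -0.10 for all genes. Its interval was not worked out after rescaling. HES1, an effector of Notch signalling, was low in youth alone, at 15.8 FPKM against 35.2 in kid and 30.8 in adult. ID genes are also expressed by vessel cells, and the endothelial markers summed to 158, 140.0 and 135 FPKM in kid, youth and adult, 3 of 5 of them lower and 1 of 5 higher in adult than in kid and none at 0; their part in the ID values was not tested.

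Partners and regulators of the MEF2 genes and of SIX4 and its relatives had a smaller median difference between adult and kid. Of 40 listed genes, 36 were compared. By counting intervals 12 were higher and 9 lower in youth than in kid, and 9 higher and 9 lower in adult than in youth. In adult against kid 13 were higher and 6 lower. The shares of all genes were 11.6% and 26.9%, 22.3% and 27%, and 16.7% and 34.6% in the same order. By the 2-fold rule 0 were higher and 0 lower in adult than in kid, against 0.536% and 1.22% of all genes. In adult against youth 0 were higher and 1 lower (HDAC9), against 1.01% and 1.07%. The median for adult against kid was 0.03 beside -0.10 for all genes, and 0.16 after rescaling by the median ratio. HDAC9, a class IIa histone deacetylase that binds and represses MEF2, was at 4.66 FPKM in the kid library, 4.76 in youth and 1.86 in adult, lower in adult than in youth by 2.56-fold (2.08 to 3.17). The related HDAC4 was at 5.65, 4.38 and 5.81 FPKM. VGLL2, a muscle cofactor of TEAD proteins, was at 90.2, 117 and 146 FPKM, and TEAD4, a TEAD protein of muscle cells, at 17.9, 21.6 and 30.5 FPKM, both higher at each later stage beyond counting error. SIX2 was at 7.48, 5.74 and 11.7 FPKM, 2.04-fold higher in adult than in youth (1.64 to 2.55). EYA4, a cofactor of SIX4, was highest in youth, at 55.3 FPKM against 39.7 in kid and 41.2 in adult. DACH1 was 2.24-fold lower in youth than in kid (1.73 to 2.92), and DACH2 was listed at 0 in all 3 libraries. SMYD2, a lysine methyltransferase, was the most abundant of the list, at 147, 134 and 157 FPKM.

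The wider satellite cell list held 25 genes, of which 18 were compared. By counting intervals 2 were higher and 7 lower in youth than in kid, 5 higher and 6 lower in adult than in youth, and 1 higher and 9 lower in adult than in kid. The shares of all genes were 11.6% and 26.9%, 22.3% and 27%, and 16.7% and 34.6% in the same order. The list's median for adult against kid was -0.19 beside -0.10 for all genes, and -0.08 after rescaling by the median ratio. MET, the receptor for hepatocyte growth factor that activates satellite cells, was highest in youth, at 15.5 FPKM against 7.67 in kid and 6.29 in adult, the reverse of the order of PAX7. SDC4, a heparan sulfate proteoglycan that is also made by other cells, was the most abundant of the list, at 119, 116 and 60.1 FPKM, lower in adult than in youth by 1.93-fold (1.84 to 2.02). CDON, a surface receptor that promotes myogenic differentiation, was at 3.63, 3.09 and 2.11 FPKM. VCAM1 was at 3.12, 3.14 and 2.77 FPKM and NCAM1 at 2.76, 2.11 and 2.24 FPKM. Under the level required for comparison were PAX3 (0.122, 0.172 and 0.0175 FPKM), the calcitonin receptor CALCR (0.0868, 0.461 and 0.635 FPKM) and the fusion protein MYMK (0.770, 0.584 and 0.284 FPKM). The 7 satellite cell markers summed to 26.4, 33.5 and 23.2 FPKM, and the 6 without MET to 18.7, 18.02 and 16.9 FPKM. Of 8 markers of proliferating cells, 3 reached the level required, and the 8 summed to 15.9, 15.8 and 11.4 FPKM, of which PCNA, a clamp of the replication fork, was 10.8, 8.54 and 6.499 FPKM. Also at the level required were CCNA2 (2.62, 2.78 and 2.54 FPKM) and MCM2 (1.13, 1.45 and 1.49 FPKM), and all their ratios between libraries held 1. MKI67 and TOP2A, both under the level required, were highest in youth. MKI67 was at 0.233, 0.627 and 0.0976 FPKM from 39, 99 and 19 reads, 2.69-fold higher in youth than in kid (1.84 to 4.01), and youth exceeded adult 6.43-fold (3.91 to 11.1). TOP2A was at 0.418, 0.851 and 0.146 FPKM from 37, 71 and 15 reads, 2.04-fold higher in youth than in kid (1.35 to 3.12), and youth exceeded adult 5.84-fold (3.31 to 10.97).

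**Figure D5:**
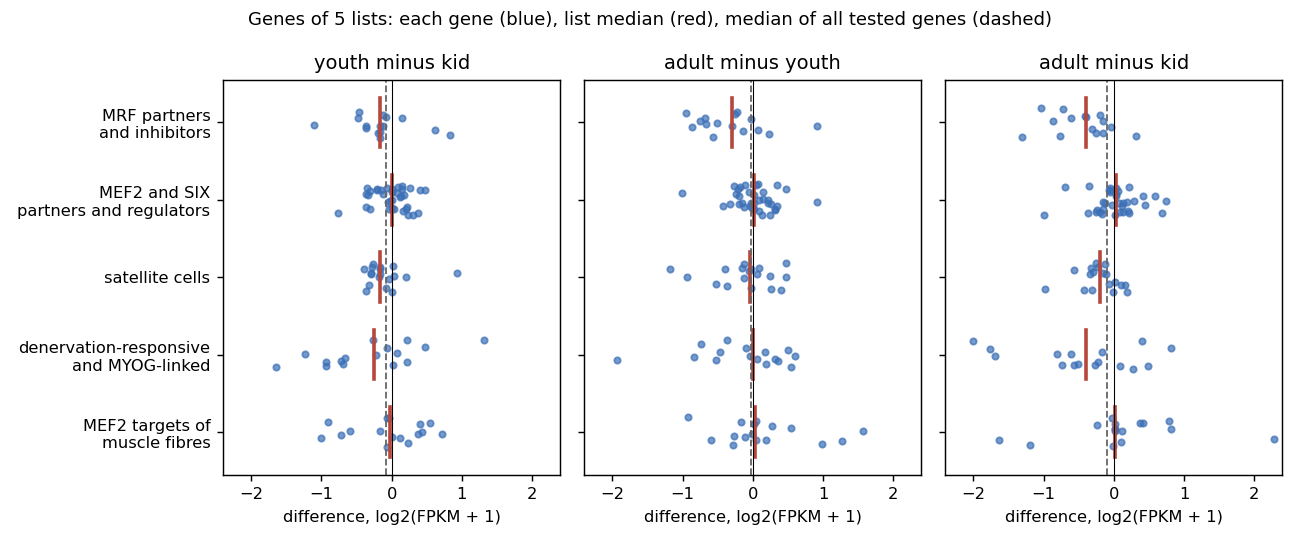
Differences of log2(FPKM + 1) (x axes) between the libraries named above each panel, for each compared gene of 5 lists (blue), with the list median (red) and the median of all 12121 genes (dashed). The partners and inhibitors of the myogenic regulatory factors have a median of -0.40 for adult minus kid beside -0.10 for all genes.

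MYOG is known in rodents to be induced in fibres that lose their nerve supply, together with acetylcholine receptor genes. Of 20 genes linked to denervation or to MYOG, 16 were compared, and by counting intervals 2 were higher and 9 lower in youth than in kid, 5 higher and 6 lower in adult than in youth, and 4 higher and 9 lower in adult than in kid. The shares of all genes were 11.6% and 26.9%, 22.3% and 27%, and 16.7% and 34.6% in the same order. The list's median for adult against kid was -0.39 beside -0.10 for all genes, and it ranged from -0.19 with no filter on low values to -0.55 for the ratio of FPKM with no pseudocount. CHRNA1, the alpha subunit of the receptor, was at 9.38 FPKM in the kid library, 4.44 in youth and 2.06 in adult, 4.56-fold lower in adult than in kid (3.35 to 6.31). The fetal gamma subunit CHRNG was at 0.983, 1.75 and 0.643 FPKM, and the adult epsilon subunit CHRNE at 4.83, 5.82 and 6.71 FPKM. MUSK, the kinase that organises the neuromuscular junction, was at 1.89, 0.7495 and 0.647 FPKM. CHRNB1, the beta subunit, was at 28.9, 17.9 and 25.7 FPKM, and RAPSN, which clusters the receptor, at 28.3, 24.3 and 30.2 FPKM, both higher in adult than in youth beyond counting error. Higher in adult than in both other libraries beyond counting error were GADD45A, a stress-induced gene (13.6, 16.03 and 24.8 FPKM), and the embryonic heavy chain MYH3 (6.05, 5.74 and 8.83 FPKM), a gene with close copies whose value is uncertain. TRIM63, a ubiquitin ligase of atrophy, was at 257, 644 and 168 FPKM and CDKN1A, the cell cycle inhibitor p21, at 65.9, 20.5 and 15.7 FPKM.

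Of 18 listed MEF2 targets of muscle fibres, 16 were compared, and 9 were higher and 4 lower in adult than in kid by counting intervals, against 16.7% and 34.6% of all genes. Many of these genes hold many reads, so small differences lie beyond counting error. TTN, with 323916 reads in kid, had an adult to kid ratio of 1.017 (1.012 to 1.022). By the 2-fold rule 1 was higher (PPARGC1A) and 2 were lower (NR4A1 and KLF4), against 0.536% and 1.22% of all genes. The median was 0.02 beside -0.10 for all genes, and 0.16 after rescaling by the median ratio. PPARGC1A, a coactivator of mitochondrial genes, was at 26.1 FPKM in the kid library, 43.3 in youth and 130.5 in adult, and the glucose transporter SLC2A4 at 87.5, 46.3 and 113 FPKM. NR4A1, an orphan nuclear receptor whose induction by calcium signals through MEF2 is known from T cells, was lower at each later stage, at 125, 75.6 and 39.6 FPKM. PPARGC1A, SLC2A4 and NR4A1 are named because they had the largest differences of the list. The summed MEF2 level stayed within 184 to 200.0 FPKM, and a link between it and the targets was not tested.

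The genes most like MYOG, MYF6 and PAX7 were sought among 10270 named genes by the distance between log2 FPKM profiles centred over the 3 libraries. With only 3 points such likeness is a description. Nearest to MYOG were PDZD9 (0.723, 0.657 and 2.04 FPKM, distance 0.180), ABTB2 (1.41, 1.11 and 5.15 FPKM, 0.245), ZNF48 (distance 0.274) and TPPP2 (distance 0.340), and PDZD9 alone lay within 0.2. Nearest to MYF6 were CEBPZOS (distance 0.051), GPSM2 (0.060), EFCAB9 (0.068) and LRP4 (4.76, 3.20 and 1.73 FPKM, 0.084), with 50 genes within 0.2. Nearest to PAX7 were DZANK1 (distance 0.021), TMPPE (0.023), SMPDL3A (0.030) and SEMA4B (0.030), with 78 genes within 0.2. Fewer genes thus lay within 0.2 of MYOG than of MYF6 or PAX7. Few genes differed as much between libraries as MYOG, so few could lie near it. The PAX7 profile rests on 33, 20 and 54 reads in kid, youth and adult, so which genes lie nearest to it is uncertain.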

How the data were processed

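In the table that the authors deposited, each stage has 1 column of FPKM. FastQC, TopHat2 and DESeq are named without version or role, per the submitters' processing notes; no source used here gives the build, the annotation, the counting or what was done with multiply mapping reads. Genes were named by gene number from a RefSeq table of goat assembly ARS1.2 (21743 of 24689 entries matched), otherwise by product text.

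Whole reads and gene lengths were recovered as the smallest whole numbers that fit all FPKM of a gene (tolerance 5e-05 of a read plus rounding); all 16054 entries above 0 in 3 libraries gave such numbers. Where reads and length share a factor, true reads are a multiple and the intervals too wide. The recovered reads made up 95.3%, 94.9% and 96.3% of the kid, youth and adult totals, and 3 reads in 1 kb equal 0.190, 0.201 and 0.163 FPKM. Recovery and calling were run on simulated reads, drawn with counting error only from the recovered lengths and totals. This run cannot show how far libraries of the same stage differ, or that the recovered lengths are the true ones.

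Ratios of FPKM have exact conditional binomial 95% intervals, and levels have exact Poisson intervals. A gene counted as 2-fold apart where log2(FPKM + 1) differed by at least 1. The members and gene lists were chosen with earlier results of these data known. From each list the text names the 3 genes with the largest difference, by rule, and the most abundant; further members were chosen after their values were seen. Among markers, all 6 of fibroblasts and all 3 measured of macrophages were lower in adult than in kid by counting intervals, as were 4 of 4 compared of adipocytes. The share of all genes was 34.6%, and COL1A1 was lower by little (ratio 0.942, 0.916 to 0.968). Python 3.11.15, NumPy 2.4.6, pandas 2.3.3, SciPy 1.17.1 and Matplotlib 3.10.9 were used.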

Additional observations from a re-analysis of the deposited data

How the results depend on the processing

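No paired analysis was possible because each stage has 1 library, and for the same reason no library could be left out. The number of the 9 genes at least 2-fold apart kept its value of 0 for youth against kid and of 2 for adult against kid under all 8 alternatives. For adult against youth it went from 1 to 2, with PAX7 added, at a pseudocount of 0.1 and for the ratio of FPKM with no pseudocount, and stayed at 1 under the other 6. These counts could not rise under the alternatives that change only the filter on low values. All 9 genes already pass the main filter, and the filter of 5 FPKM leaves out MYF5 and PAX7. Over all genes the counts of 127 (youth against kid), 252 (adult against youth) and 213 (adult against kid) became 300, 555 and 451 at a pseudocount of 0.1, 45, 82 and 71 at a pseudocount of 5, 64, 160 and 122 among genes averaging 5 FPKM or more, and 332, 621 and 516 for the ratio with no pseudocount. Rescaling by the median ratio changed the split from 65 higher and 148 lower to 92 and 105 for adult against kid, and quantile normalization to 90 and 100; for youth against kid it went from 51 and 76 to 60 and 60 and to 62 and 56. No difference of the 9 genes that was beyond counting error reversed. Of 210 differences under alternatives, 200 stayed within the counting interval of the reported value. The alternatives that change only the filter on low values cannot move a gene's difference, so their share of the 200 was fixed in advance. For the gene lists, 21 of 120 medians and 28 of 120 counts under alternatives moved, medians by at least 0.1 and counts by over 1.5 times. Depth limits MYF5 and PAX7, with 20 to 54 reads per library.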
